A study of Homo sapiens with 11 samples.

Results

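The transcripts described here are those of 10 chemokines, small secreted proteins that guide white blood cells: CCL20, the neutrophil-attracting CXCL8, CXCL1, CXCL2, CXCL3, CXCL5 and CXCL6, and CCL2, CCL5 and CXCL10, which draw monocytes and lymphocytes. They were taken by symbol from a table of 28152 gene symbols, and all 10 were found. The genes were chosen with their difference between the groups already known, so their levels and fold changes under treatment are a description and carry no test. RNA was sequenced from tumours that the labels give as BT-474, a human breast cancer line labelled HR+/Her2+. The cells had been placed with Matrigel in the mammary fat pad of female athymic nude mice, which lack a thymus and the T cells that mature there, so that white blood cells in these tumours come from the mouse. All animals of both groups carried a slow-release pellet of 0.72 mg estradiol under the skin, made to last 90 days, and tumours entered the study above 95 cubic millimetres. The vehicle group (6 tumours) received 5% mannitol in water under the skin every 4 days. The evexomostat group (5 tumours) received evexomostat, also called SDX-7320, in the same solution and on the same schedule at 12 mpk. Evexomostat inhibits methionine aminopeptidase 2, an enzyme that removes the first methionine from new proteins. All tumours are labelled day 33, with 1 library per tumour, and the labels do not say whether a tumour's number marks a litter, a cage or a batch.

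Chemokines bind receptors on passing leukocytes and steer them along a gradient. CCL20 acts through CCR6, found on dendritic cells, B cells and interleukin 17-producing T cells, and the CXC chemokines whose receptor-binding end carries the ELR motif act on neutrophils through CXCR1 and CXCR2. Epithelial and tumour cells make both kinds after interleukin 1, tumour necrosis factor or interleukin 17, through the transcription factor NF-kB, and their short-lived messages are destroyed by mRNA decay factors. CXCL10 is the type of chemokine best known for induction by interferon, whereas CCL2 and CCL5 answer to both inputs.

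The promoters are shown because they carry the sequence these genes share. Promoters of 300 bases were matched by symbol in RefSeq for 8 of the 10 genes (build GRCh38.p14), CCL2 and CCL5 being the others. The lines below print the stretch from 130 to 11 bases before the annotated start of transcription, and for CXCL10 the stretch from 233 to 114 bases before it, 5′ to 3′ on the gene's strand. Capitals mark an NF-kB-type site, a TATAAA box or, in CXCL10, an interferon element.
CCL20, chr2:227813712-227813831, plus strand: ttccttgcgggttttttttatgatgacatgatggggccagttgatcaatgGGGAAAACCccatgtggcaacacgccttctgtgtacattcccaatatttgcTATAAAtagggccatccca
CXCL8, chr4:73740439-73740558, plus strand: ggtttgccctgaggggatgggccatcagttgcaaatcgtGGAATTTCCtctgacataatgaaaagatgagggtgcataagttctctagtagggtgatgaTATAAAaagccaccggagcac
CXCL1, chr4:73869263-73869382, plus strand: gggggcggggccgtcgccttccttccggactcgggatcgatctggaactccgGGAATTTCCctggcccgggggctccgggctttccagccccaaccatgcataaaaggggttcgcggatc
CXCL2, chr4:74099206-74099325, minus strand: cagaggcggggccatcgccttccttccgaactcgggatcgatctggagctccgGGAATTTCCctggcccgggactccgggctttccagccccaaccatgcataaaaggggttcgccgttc
CXCL3, chr4:74038700-74038819, minus strand: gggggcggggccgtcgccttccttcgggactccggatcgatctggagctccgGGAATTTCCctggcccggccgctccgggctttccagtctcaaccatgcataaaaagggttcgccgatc
CXCL5, chr4:73998688-73998807, minus strand: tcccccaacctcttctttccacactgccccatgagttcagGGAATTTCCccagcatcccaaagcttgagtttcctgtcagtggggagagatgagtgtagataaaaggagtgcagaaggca
CXCL6, chr4:73836548-73836667, plus strand: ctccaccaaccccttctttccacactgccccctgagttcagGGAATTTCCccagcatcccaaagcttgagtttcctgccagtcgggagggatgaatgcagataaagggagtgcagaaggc
CXCL10, chr4:76023611-76023730, minus strand: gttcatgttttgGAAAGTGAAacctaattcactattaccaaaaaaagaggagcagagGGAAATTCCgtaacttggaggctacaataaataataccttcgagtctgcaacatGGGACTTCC

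The 9 letters GGAATTTCC, searched on both strands, occurred in 7 of the 8 promoters. They occurred in 162 of all 35116 RefSeq promoters of the same length (0.461%). The motifs were chosen after these promoters had been seen, so the 2 counts are a description. In the 6 neutrophil-attracting genes the match lay on the gene's strand and began 91 to 77 bases before the start. In CXCL10 it lay on the opposite strand, printed as GGAAATTCC, 176 to 168 bases before the start, and a second form, GGGACTTCC, held by 0.917% of promoters, followed nearer the start. CCL20 held another NF-kB-type form, GGGAAAACC, found in 0.439% of all promoters, 80 to 72 bases before its start. TATAAA, present in 11.5% of promoters, was found in CCL20 and CXCL8. The AP-1 site TGACTCA (4.95% of promoters) was found in CXCL8 alone of the 8, before the printed stretch, and the interferon-type element GAAANNGAA (8.11%) in CXCL10 and, before the printed stretch, in CXCL2 and CXCL3. The most alike pairs of promoters were CXCL5 with CXCL6, with 82.9% of bases identical without gaps, and CXCL1 with CXCL3, with 68.7%. CXCL1 and CXCL2 shared 51.7% by the same measure, which allows a shift of up to 10 bases but no gap. A match to these letters describes the sequence and does not show that a factor binds there.

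**Figure D1:**
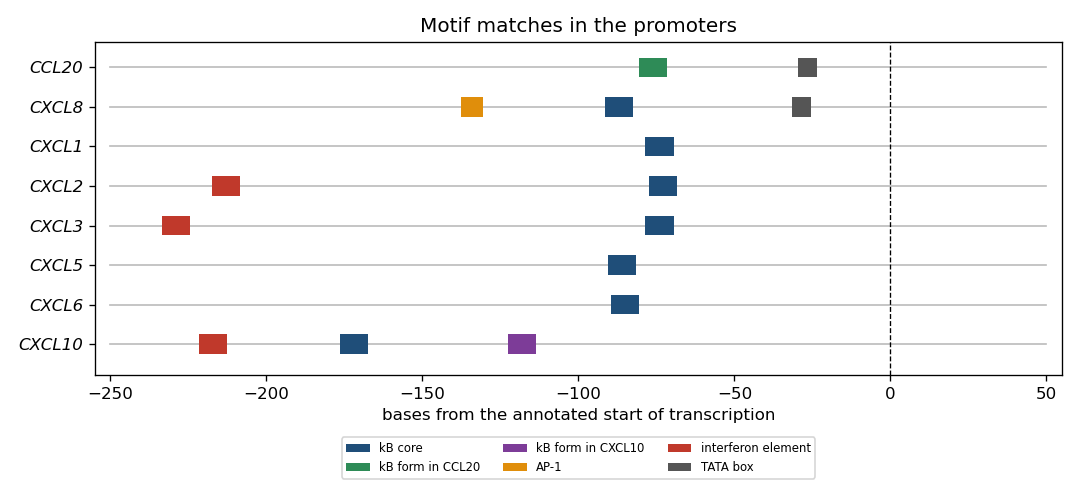
Position of each motif match (coloured boxes) in the promoters of 8 chemokine genes, with distance in bases from the annotated start of transcription (dashed line) on the horizontal axis. The 6 neutrophil-attracting CXCL genes carry the NF-kB core in the same narrow zone upstream of the start, CCL20 carries a variant form there, and in CXCL10 the matches lie farther upstream.

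The libraries held 22808033 to 39249329 counts, and at these depths 3 counts, the limit that a count of 0 allows for counting error, correspond to 0.0764 to 0.132 RPM, reads scaled to a common library total. Levels below are CPM, counts set against a shared library size after TMM scaling, which adjusts each library's total for the share taken by its most abundant genes. In edgeR's quasi-likelihood test 101 of 16653 tested genes passed an adjusted p of 0.05 between the groups, 29 higher and 72 lower under evexomostat, and the median log2 fold change of all tested genes was -0.04. Vehicle 001 stood apart: its 100 most abundant genes took 23.9% of its counts against 16.2% to 17.9% elsewhere. Its genes shorter than 1500 bases lay, in the median, 0.59 log2 units above their mean over all libraries. Evexomostat 003 had the next largest such shift, 0.18. Markers of the labelled line were met in part. The keratins KRT8 and KRT18, of simple epithelia and not of breast alone, averaged 333 and 149 CPM, and ERBB2, the gene of HER2, 53.3. In contrast ESR1, the estrogen receptor, averaged 0.286 CPM, the progesterone receptor PGR 0.0654 and the epithelial genes CDH1 and KRT19 0.453 and 0.804. The rest of the 12 markers of the label were low too: GATA3 averaged 6.50 CPM, EPCAM 3.05, FOXA1 1.05, GRB7 0.300 and TFF1 0.0569. Whether the level of ERBB2 is that of a Her2+ line was not tested. VIM and CD44, typical of mesenchymal cells, averaged 1184 and 836. The tumours are therefore called by their label only. In bulk tissue, fewer cells of a type and less RNA per cell cannot be told apart.

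Every one of the 10 chemokines had a lower mean level under evexomostat than under vehicle, with a direction that turned for CXCL10 when only the 8 tumours with numbers shared between the groups were used. All 10 passed the filter on low counts. Their log2 fold changes ran from -2.80 for CCL20 to -0.32 for CXCL10, with a median of -1.42. CXCL5 was farther from 0 than CCL20 in 4 of 21 alternatives, for example at -2.80 against -2.57 without vehicle 005. Of the 10, 1 gene, CCL20, passed the threshold, against 0.606% of all tested genes (0.432% in the downward direction). The libraries of the groups did not overlap for 3 genes, CCL20, CXCL1 and CXCL3, against 2.97% of all tested genes, 1.64% with all evexomostat libraries lower. A log2 fold change below 0 was seen in 55.4% of all tested genes. By other methods, 6 of the 10 passed in DESeq2 (2.71% of all tested genes downward), 5 in limma-voom with quality weights (4.05%) and 2 in edgeR with no count filter (0.311%). In edgeR 3 passed without vehicle 001 (3.24%) and 3 without vehicle 005 (0.339%), CCL20, CXCL1 and CXCL3 each time. Since the genes were chosen on this contrast, these counts describe the choice. In the authors' deposited table, 4 of the 10 had an adjusted p under 0.05, against 268 of its 28152 genes (0.952%). The 4 were CCL20, CXCL8, CXCL1 and CXCL3, with log2 fold changes in the authors' deposited table of -2.69, -1.28, -2.22 and -1.39.

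**Figure D2:**
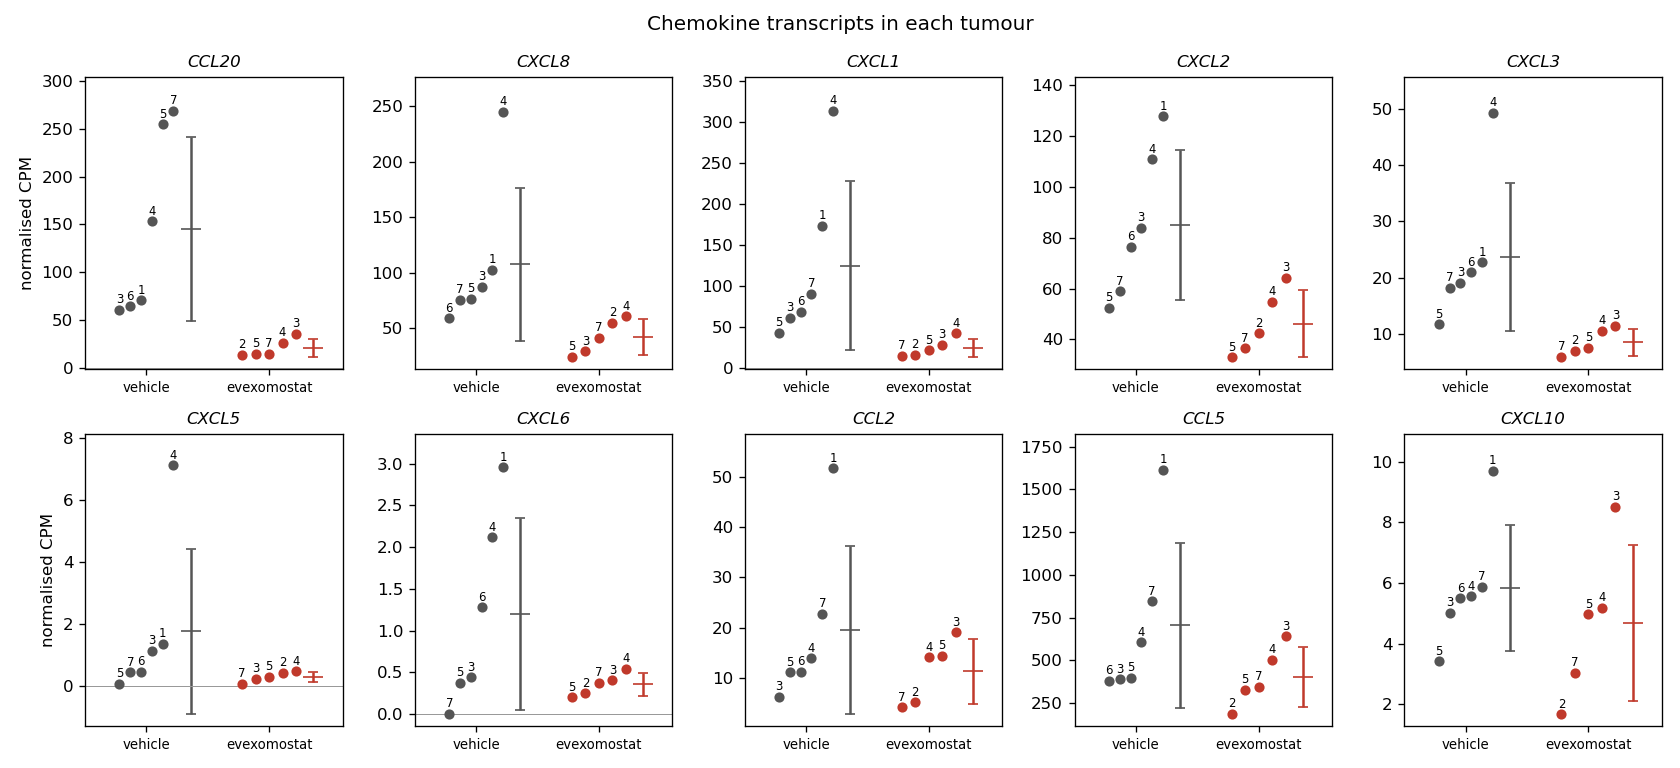
Normalised CPM of the 10 chemokines (vertical axes, each from its own range) in the 6 vehicle and 5 evexomostat tumours, sorted within a group and marked with the last digit of the tumour number; bars give the mean and SD. For CCL20 the vehicle tumours sit between 60.5 and 269 and the evexomostat tumours between 13.5 and 35.3, whereas for CXCL10 the groups cover much the same range.

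CCL20, the ligand of CCR6, was measured at 70.6, 60.5, 153, 255, 64.3 and 269 CPM in vehicle tumours 001, 003, 004, 005, 006 and 007. In evexomostat tumours 002, 003, 004, 005 and 007 it was measured at 13.5, 35.3, 26.3, 14.6 and 14.8 CPM. The groups did not overlap: the lowest vehicle tumour lay above the highest treated one. The vehicle tumours themselves spread from 60.5 to 70.6 CPM in 001, 003 and 006 up to 269 CPM in 007, while in the treated tumours 002, 005 and 007 lay close together and 003 and 004 above them. The means were 145 ± 96.5 CPM (SD, n = 6) and 20.9 ± 9.59 (SD, n = 5), which is 6.96-fold lower (log2 fold change -2.80, SE 0.48). Without vehicle 001 the log2 fold change was -2.94. The gene no longer passed the threshold when evexomostat 002, 004, 005 or 007 was left out in turn, with log2 fold changes of -2.68, -2.89, -2.69 and -2.70, and it passed in each of the other 7 fits without 1 tumour. Behind these levels stood 434 to 9456 counts per library.

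CXCL8, interleukin 8, is a major neutrophil attractant in humans and acts on both CXCR1 and CXCR2. In the vehicle tumours, in the same order, it was measured at 102, 87.5, 245, 76.1, 58.9 and 75.4 CPM. The treated tumours held 54.9, 29, 60.7, 23.9 and 41.2 CPM. Vehicle 004 was far above the rest, and the groups overlapped only through vehicle 006 and evexomostat 004. The log2 fold change was -1.36 (SE 0.37), and without vehicle 004 it was -0.93.

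CXCL1, CXCL2 and CXCL3 are clustered genes on chromosome 4 whose proteins bind CXCR2. CXCL1 was measured at 174, 61.1, 314, 43.4, 69.1 and 91.0 CPM under vehicle. Under evexomostat it was measured at 16.0, 28.6, 42.7, 21.9 and 15.4 CPM. The lowest vehicle tumour (005) and the highest treated tumour (004) almost touched, without overlap, and vehicle 004 was again the highest of all. The log2 fold change of CXCL1 was -2.33 (SE 0.50), with group means of 125 ± 103 (SD, n = 6) and 24.9 ± 11.3 CPM (SD, n = 5). CXCL2 had the smallest spread of the CXCR2 ligands among vehicle tumours: 52.4, 80.2 and 128 CPM were its lowest, median and highest vehicle values, and its treated tumours held 42.4, 64.3, 54.7, 32.9 and 36.5 CPM. Its groups overlapped, with 4 of 6 vehicle tumours above all treated ones, and its log2 fold change was -0.88 (SE 0.25). CXCL3 had a lowest, median and highest vehicle level of 11.7, 20.01 and 49.4 CPM, and its treated tumours held 6.98, 11.4, 10.5, 7.55 and 5.85 CPM. These groups did not overlap, by a margin of 11.4 in evexomostat 003 against 11.7 in vehicle 005, and the log2 fold change was -1.48 (SE 0.33). The 3 genes have similar transcripts: of all 150-base stretches in GENCODE transcripts, 1.83% of those of CXCL2 and 1.15% of those of CXCL3 are exact copies of each other and none of CXCL1, so a small part of their counts cannot be assigned with certainty. At 50 bases the shares were 4.81% for CXCL1, 12.5% for CXCL2 and 6.01% for CXCL3.

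CXCL5 and CXCL6, 2 further CXCR2 ligands (CXCL6 also binds CXCR1), were present at low levels. CXCL5 was measured at 1.36, 1.14, 7.13, 0.0808, 0.468 and 0.441 CPM in the vehicle tumours. The treated tumours held 0.434, 0.243, 0.471, 0.298 and 0.0622 CPM. The lowest values, in vehicle 005 and evexomostat 007, are at or under the level of 3 counts, and the vehicle mean of 1.77 CPM rested on vehicle 004. The log2 fold change of CXCL5 was -2.55 (SE 0.92) and moved to -1.17 without that tumour. CXCL6 was measured at 2.96, 0.439, 2.12, 0.377, 1.28 and 0 CPM under vehicle and between 0.199 and 0.543 CPM under evexomostat. Its vehicle tumours thus lay on both sides of the treated range, and the count of 0 in vehicle 007 allows a level of up to 0.110 CPM. The log2 fold change of CXCL6 was -1.73 (SE 0.78), and -1.26 without vehicle 001.

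CCL2, CCL5 and CXCL10 overlapped between the groups, as CXCL5 and CXCL6 did. CCL2, the main monocyte attractant through CCR2, had a lowest, median and highest vehicle level of 6.35, 12.6 and 51.6 CPM, and its treated tumours held 5.18, 19.1, 14.1, 14.4 and 4.198 CPM. Only vehicle 001 and 007 exceeded every treated tumour. The log2 fold change of CCL2 was -0.77 (SE 0.53) with all tumours and -0.20 without vehicle 001, the library with high levels of short genes. CCL5, which acts on receptors that include CCR1 and CCR3, had a lowest, median and highest vehicle level of 378, 501 and 1617 CPM. Its treated tumours held 185, 641, 504, 326 and 345 CPM, so that evexomostat 003 and 004 lay among the vehicle values. The log2 fold change of CCL5 was -0.82 (SE 0.41), and -0.38 without vehicle 001. CXCL10, the interferon-induced ligand of CXCR3, was measured at 3.42 to 9.70 CPM under vehicle and 1.68 to 8.51 CPM under evexomostat. Its log2 fold change was -0.32 (SE 0.36), and -0.12 without vehicle 001. In the 8 tumours whose numbers occur in both groups it was 0.12, and 0.0667 with the number as a block, so the direction of CXCL10 depended on the tumours fitted.

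**Figure D3:**
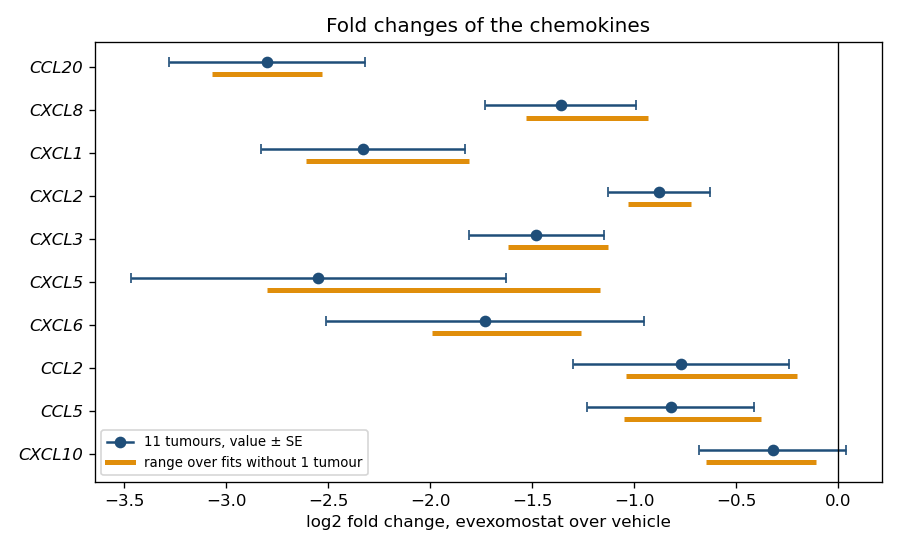
Log2 fold change of each chemokine under evexomostat relative to vehicle (horizontal axis; points with SE, 11 tumours) and, below each point, the range over the 11 fits that leave out 1 tumour. CCL20 (-2.80) and CXCL1 (-2.33) lie farthest from 0 among the abundant genes, the range of CXCL5 (-2.80 to -1.17) is the widest, and those of CCL2 and CXCL10 come closest to 0, at -0.20 and -0.11.

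Per kilobase of exon, which allows levels to be compared between genes, CCL5 was the most abundant of the 10 in vehicle tumours (mean 493.1 CPM per kilobase), followed by CCL20 (173), CXCL1 (114.3), CXCL2 (69.8), CXCL8 (53.7), CXCL3 (22.01), CCL2 (17.4), CXCL10 (4.97), CXCL5 (0.697) and CXCL6 (0.650). Exon lengths came from GENCODE 29, which is not the annotation of the deposited counts. Of these neighbours in the order, only CXCL10 and CXCL5 had ranges over the vehicle tumours that did not overlap. CCL20 was above CXCL1 in 4 of 6 vehicle tumours, and CXCL8 above CXCL3 in 6 of 6. Under evexomostat CCL5 stayed first (280 CPM per kilobase), and CXCL2 came next (37.9), ahead of CCL20 (24.8), CXCL1 (22.7) and CXCL8 (20.9). CXCL2 exceeded CXCL1 in 5 of 5 treated tumours and in 2 of 6 vehicle tumours. CCL20 made up 3.24% to 29.96% of the summed CPM of the 10 chemokines in vehicle tumours and 3.18% to 4.21% in treated ones. The 6 neutrophil-attracting genes summed to 184 to 728 CPM under vehicle and 86.7 to 170 CPM under evexomostat.

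Within a group the 10 genes did not vary as 1 block. After subtracting each group's mean log2 CPM, CXCL1 and CXCL3 deviated together across the 11 tumours, with Pearson's r = 0.90 (permutation p = 0.00049, adjusted 0.0209 over 45 pairs) and Spearman's rho = 0.86 (permutation p = 0.00254, adjusted 0.0388). Without vehicle 004 and 005, the tumours farthest from the median of CXCL1, r was 0.75. CCL5 and CXCL10 deviated together too, with r = 0.83 (permutation p = 0.00093, adjusted 0.0209) and rho = 0.82 (permutation p = 0.00259, adjusted 0.0388), and r was 0.74 without vehicle 001 and evexomostat 002. CCL2 and CCL5 had r = 0.86 (permutation p = 0.0021, adjusted 0.0315), r = 0.76 without vehicle 001 and 003, and rho = 0.76, whose permutation p of 0.0119 did not pass the adjustment (0.0764). These 3 pairs passed by Pearson's r, and CXCL1 with CXCL3 and CCL5 with CXCL10 by both measures. CCL2 with CXCL10 passed by rho alone (0.88, permutation p = 0.00205, adjusted 0.0388), with r = 0.80 (permutation p = 0.00483, adjusted 0.0501). CCL2, CCL5 and CXCL10, each with under 1500 exon bases, were all above their group mean in vehicle 001 and evexomostat 003. In these libraries the median deviation of short genes from the mean over all libraries was 0.59 and 0.18 log2 units. CXCL1, CXCL2 and CXCL3, also under 1500 bases, and the longer CXCL6 were above their group mean in both as well. CCL20, the shortest of the 10 with 842 exon bases, deviated by -0.76 in vehicle 001 and 0.87 in evexomostat 003. Without vehicle 001 and evexomostat 003, an alternative chosen after seeing the data, r was recomputed over 9 tumours. It was 0.73 for CCL5 with CXCL10, 0.69 for CCL2 with CCL5, 0.67 for CCL2 with CXCL10 and 0.95 for CXCL1 with CXCL3. The part of the short-gene shift in the values with all tumours was not tested further. The permutations, 100000 for each pair, were two-sided and kept tumours within their group. With the other 9 genes CCL20 had r between -0.45 and 0.28, and none of these pairs had a permutation p under 0.05. When the tumours with the most extreme CCL20, vehicle 007 and 005, were left out, r with the 9 genes ran from 0.11 for CXCL6 to 0.67 for CXCL3. The next highest was 0.60 with CXCL1, and no p is given for these values. CXCL8 and CXCL1 had r = 0.65 with all tumours (permutation p = 0.0505, adjusted 0.17), rho = 0.33 (permutation p = 0.338, adjusted 0.507) and r = 0.01 without vehicle 004 and evexomostat 004, so that relation rested on those tumours.

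**Figure D4:**
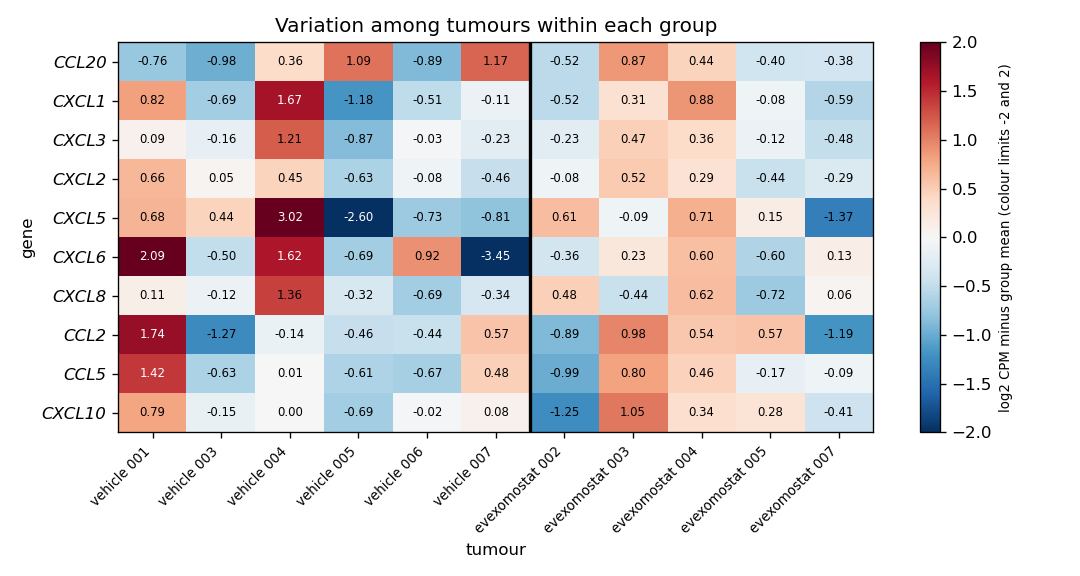
Deviation of log2 CPM from the mean of the tumour's own group for each chemokine (rows) and tumour (columns; the line separates vehicle from evexomostat), printed in each cell; colour is limited to -2 and 2. The 6 neutrophil-attracting CXCL rows are above their group mean in vehicle 004, and CCL20 is highest in vehicle 007 and 005. CCL2, CCL5, CXCL10, CXCL1, CXCL2, CXCL3 and CXCL6 are above their group mean in vehicle 001 and evexomostat 003, the libraries with the largest shift of short genes.

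The genes whose deviations were most like those of CCL20 were AKR1C1, an aldo-keto reductase (r = 0.93 over 11 tumours), SSC4D (0.90), HHIPL2 (0.90), the non-coding LINC01426 (0.89) and MYO3A, a myosin (0.89). Without vehicle 007 and 005 these r were 0.90, 0.83, 0.86, 0.84 and 0.84. They are the top 5 of all tested genes, so high values are a product of the search and no p is given. AKR1C1 averaged 103 ± 60.1 CPM in the vehicle tumours (SD, n = 6) and 27.7 ± 11.7 in the treated ones (SD, n = 5). Only 1 of the 5 stayed among the top 5 by Spearman's rho, and only 1 by Pearson's r without subtracting the group means. CXCL3 ranked 3 among all tested genes in likeness to CXCL1, and the gene of the 10 most like CCL20, CCL2, ranked 4060.

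The receptors through which these chemokines act were scarce in the human-gene counts. White blood cells in these tumours come from the mouse, and how mouse reads were treated is not given. The counts below therefore do not measure the receptors on those cells. CCR6, the receptor of CCL20, had 5 to 18 counts per library, with vehicle tumours at 0.391 ± 0.130 CPM (SD, n = 6) and treated tumours at 0.474 ± 0.132 (SD, n = 5; log2 fold change 0.28, SE 0.33, edgeR adjusted p = 0.780). CXCR1 had 2 counts in all libraries together, and CXCR2 had 2 to 13 counts per library. Neither passed the filter, and neither did CCR3 (0 to 6 counts) or CXCR3 (0 to 4). CCR2, the receptor of CCL2, was near 1 CPM in both groups, with 1.32 ± 0.197 (SD, n = 6) and 1.22 ± 0.243 (SD, n = 5). CCR1 was lower in every treated tumour than in every vehicle tumour, 4.03 ± 1.94 against 1.74 ± 0.323 CPM, but did not pass the threshold (log2 fold change -1.21, SE 0.32, edgeR adjusted p = 0.107). Without vehicle 001 it passed (-1.30, edgeR adjusted p = 0.0332). Of 23 chemokine receptors 9 were tested, and 1 passed, downward: CXCR4, the receptor of CXCL12, fell from 11.4 to 38.3 CPM in the vehicle tumours to 4.17 to 8.34 CPM in the treated ones (log2 fold change -2.25, SE 0.33, edgeR adjusted p = 0.0138). CXCR4 did not pass without evexomostat 002, 005 or 007, with log2 fold changes of -2.22, -2.17 and -2.16 and edgeR adjusted p of 0.0533, 0.0577 and 0.0654. Of 33 other chemokines 10 were tested, and none passed in edgeR, with 5 lower at an unadjusted p under 0.05 (8.55% of all tested genes were). DESeq2 called 1, when it called 2.71% of all tested genes downward. Without vehicle 001 edgeR also called 1 of them downward, when it called 3.24% of all tested genes downward. The median log2 fold change of these 10 other chemokines was -0.84.

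Among genes that control or accompany chemokine transcription, those past the threshold were lower under evexomostat. The 7 lists of receptors, ligands and pathway genes were drawn up with earlier results of these data known. Their counts of calls, set beside the share of all tested genes, are therefore a description and carry no test. Of 148 receptor, ligand and pathway genes listed beside the 10 chemokines, 100 were tested, 8 passed the edgeR threshold downward and 0 upward, against 0.432% and 0.174% of all tested genes. Without vehicle 001 there were 26 downward, when 3.24% of all tested genes were called downward, and without evexomostat 002, 005 or 007 there were 0. Of the 21 genes of the NF-kB system all were tested, and 3 passed, each with groups that did not overlap. RELB, an NF-kB subunit, fell from 109 ± 7.39 (SD, n = 6) to 69.5 ± 7.48 CPM (SD, n = 5; log2 fold change -0.65, SE 0.11, edgeR adjusted p = 0.0246). BIRC3, a ubiquitin ligase in the tumour necrosis factor receptor complex, fell by 0.76 on the log2 scale (edgeR adjusted p = 0.0462). NFKBIZ, a nuclear cofactor needed for a subset of NF-kB targets, fell by 0.95 (edgeR adjusted p = 0.0466). Without evexomostat 002, 003, 005 or 007 RELB did not pass (edgeR adjusted p = 0.0523 to 0.110), and BIRC3 and NFKBIZ lost their calls in 8 and 10 of the 11 fits that leave out 1 tumour, with log2 fold changes of -0.78 to -0.65 and -1.03 to -0.81 in those. The median log2 fold change of the 21 was -0.33, and without vehicle 001 11 of them passed, all downward. RELA, the subunit best known as an activator and singled out after its value was seen, had a log2 fold change of -0.27 (edgeR adjusted p = 0.643) with all tumours. Without vehicle 001 it was -0.41 (edgeR adjusted p = 0.0413), so RELA is among those 11.

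Of 15 genes that respond to the same stimuli as the chemokines, 13 were tested and 3 passed, all downward, against 0.432% of all tested genes, with a median log2 fold change of -1.25. This list too was drawn up with earlier results of these data known, so its count and median are a description. PTGS2, the inducible cyclooxygenase of prostaglandin synthesis, was measured at 13.6 to 129 CPM in vehicle tumours and 2.95 to 7.10 CPM in treated ones (log2 fold change -3.56, SE 0.47, edgeR adjusted p = 0.0138). SOD2, the mitochondrial superoxide dismutase, fell from 2386 ± 364 (SD, n = 6) to 1050 ± 141 CPM (SD, n = 5; edgeR adjusted p = 0.0138). ICAM1, which holds leukocytes on endothelium and epithelium, fell from 213 ± 56.2 (SD, n = 6) to 89.3 ± 10.6 CPM (SD, n = 5; edgeR adjusted p = 0.0189). None of the 3 overlapped between the groups, and none passed without evexomostat 002, 005 or 007, where edgeR adjusted p was 0.0525 to 0.0747. PTGS2, unlike CXCL1 or CCL5, was lowest among vehicle tumours in vehicle 001.

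The remaining lists held few calls. Of 28 genes of inducing signals (interleukin 1, tumour necrosis factor, interleukin 17 and Toll-like receptors with their adaptors) 20 were tested and none passed in edgeR. At an unadjusted p under 0.05 there were 5, against 8.55% of all tested genes downward, and DESeq2 called 1, against 2.71% downward. Without vehicle 001 edgeR called 1 downward, against 3.24% of all tested genes. The median log2 fold change was -0.21. Of genes singled out after their values were seen, TNF and IL17A had no count in any library, and IL1A was measured at 50.2 ± 13.8 (SD, n = 6) and 28.9 ± 13.6 CPM (SD, n = 5; edgeR adjusted p = 0.237). All 8 genes of mRNA decay were tested. None passed in edgeR (3 at an unadjusted p under 0.05, against the same 8.55%, and 0 by DESeq2), and their median was -0.28. Of these 8 genes edgeR called 1 downward without vehicle 001, against the same 3.24%. On the interferon side 19 of 20 genes were tested and 1 passed, against 0.432% downward: IFNGR1, a chain of the interferon gamma receptor, fell from 106 ± 15.1 (SD, n = 6) to 67.7 ± 7.93 CPM (SD, n = 5; edgeR adjusted p = 0.0478). IFNGR1 lost its call in 9 of the 11 fits that leave out 1 tumour, with log2 fold changes of -0.70 to -0.61. The median log2 fold change of the list was -0.27.

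**Figure D5:**
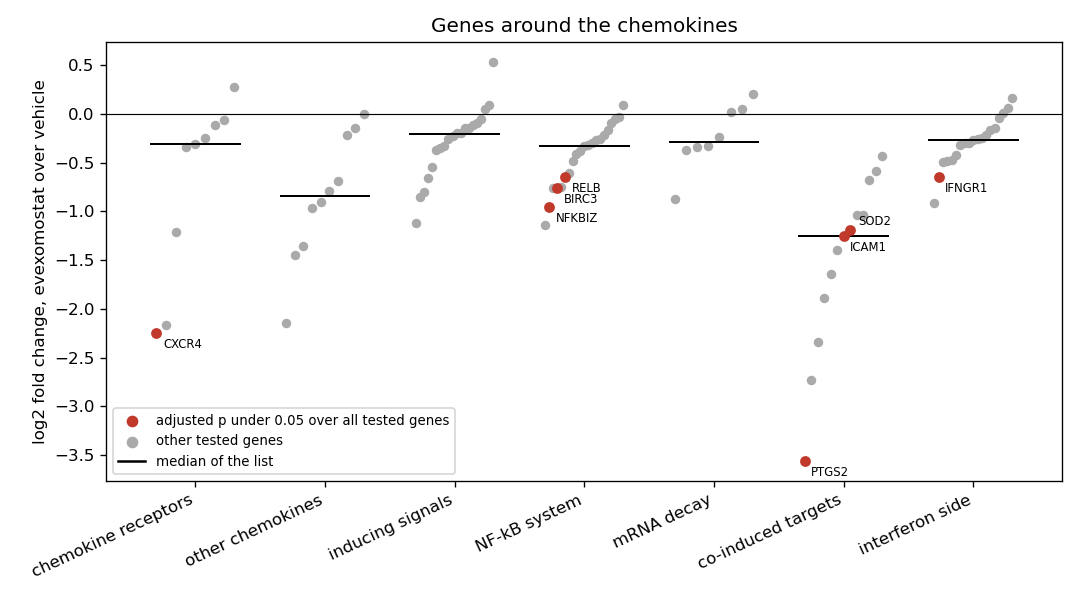
Log2 fold change under evexomostat relative to vehicle (vertical axis) of every tested gene in 7 lists of genes around the chemokines, sorted within a list; red points passed an adjusted p of 0.05 over all tested genes and black lines are medians. The 8 red points lie below 0, and the co-induced targets have the lowest median (-1.25).

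Markers of other cell types were summed in each tumour beside the chemokines. Of 12 neutrophil markers, FPR2 was at 0 in all libraries and 8 averaged under 1 CPM. Their sum, led by AZU1 and ELANE, was 20.9 to 38.3 CPM under vehicle and 26.5 to 34.96 CPM under evexomostat. Macrophage markers (12 genes, 4 of which averaged under 1 CPM) summed to 96.8 to 155 CPM and 94.4 to 111 CPM, led by CD68. Their 3 highest sums, 155, 148 and 146 CPM in vehicle 005, 007 and 004, were those of the 3 tumours highest in CCL20. White blood cells in these tumours come from the mouse, and how mouse reads were treated is not given. These sums of human gene symbols therefore do not measure the number of macrophages. Of the 12, 1 passed the threshold: MARCO, a scavenger receptor of macrophages, fell from 5.87 to 42.5 CPM in the vehicle tumours to 3.13 to 6.75 CPM in the treated ones (log2 fold change -2.20, SE 0.44, edgeR adjusted p = 0.0462). MARCO lost its call in 9 of the 11 fits that leave out 1 tumour, with log2 fold changes of -2.33 to -1.94. CD68 had a log2 fold change of -0.30 (edgeR adjusted p = 0.610). Lymphocyte markers (9 genes, CD3E and MS4A1 at 0 in all libraries) summed to 1.52 to 7.24 CPM and 0.762 to 2.19 CPM, and endothelial markers (8 genes) to 13.1 to 24.0 CPM and 12.3 to 16.3 CPM. Fibroblast markers (8 genes, led by COL3A1) reached their highest sum, 2075 CPM, in vehicle 004, the tumour highest in CXCL8, CXCL1, CXCL3 and CXCL5, against 423 CPM in the lowest vehicle tumour and 518 to 1097 CPM under evexomostat. COL3A1 alone reached 1751 CPM in vehicle 004. Over all tumours COL1A1 averaged 166 CPM, whereas PDGFRA, DCN and LUM averaged 1.48, 0.390 and 1.04 CPM. The sum is thus mostly COL3A1 and does not measure the number of fibroblasts. The next highest fibroblast sum, 1346 CPM, was that of vehicle 006, the lowest vehicle tumour in CXCL8. Muscle markers (10 genes) summed to 3.17 to 21.0 CPM under vehicle and 4.38 to 425 CPM under evexomostat, with the highest sum in evexomostat 005. Adipocyte markers (6 genes, ADIPOQ at 0) summed to 9.22 to 23.6 CPM and 9.40 to 17.4 CPM, markers of the labelled luminal type (12 genes) to 344 to 791 CPM and 476 to 601 CPM, and mesenchymal markers (8 genes) to 2209 to 4178 CPM and 2135 to 3052 CPM. The part of these cells in the chemokine levels was not tested. For CXCL1 and CXCL3 the log2 fold change without vehicle 004 was -1.81 and -1.13.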

How the data were processed

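RNA from frozen tumour portions was sequenced as paired-end libraries, per the labels' protocols. Libraries were grouped by title, and columns were matched to libraries through the sample codes in the labels. The authors deposited whole-number read counts per gene symbol, RPM values (counts divided by their column total and rescaled, which was checked to within 9.0949e-13) and a comparison table with log2 fold changes and p-values whose test is not given in the sources used here. The submitters' processing notes name bcl2fastq 2.17, STAR 2.7.5c, featureCounts, Subread, edgeR and the builds GRCh37 and hg19, without roles. Strand use and the treatment of mouse reads are not given in the sources used here. If the counting was unstranded, antisense genes cannot be told apart.

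Genes were kept by filterByExpr (minimum count 10, minimum total 15), which left 16653 of 28152 symbols, scaled by TMM and compared with edgeR 4.0.16 (quasi-likelihood F-test, no covariates, Benjamini-Hochberg over all tested genes) in R 4.3.3. Levels are TMM-normalised CPM, with log2 CPM computed at a prior count of 2. The methods were tested on simulated data. The members, the gene lists and the motifs were chosen with earlier results of these data known. Named genes were all 10 chemokines, every list gene past the threshold, the chemokines' own receptors and the 5 genes most like CCL20; 1 receptor is not reported here. Alternatives were scaling by upper quartiles or relative log expression, tests in DESeq2 1.42.0 and limma 3.58.1 (voom with and without quality weights, trend on log2 RPM with pseudocounts of 1 and 0.1), no count filter, a block on the tumour number, and leaving out each tumour. No pair of libraries was a duplicate (smallest chi-square per degree of freedom 13.5 over 55 pairs). The edgeR p-values set the difference between the groups against the spread between these tumours. Permutation p-values concern the correlation of 2 genes across the same tumours. Sequences are from RefSeq (GRCh38.p14) and transcript lengths from GENCODE 29. The deposited counts have another build, so no gene coordinates are given from them.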

Additional observations from a re-analysis of the deposited data

Results flagged for a closer look

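The highest and lowest tumour of each group were compared with the rest of the group for all 10 chemokines in both groups, 20 checks in all, and chance marks about 1 in 20 such groups. In 4 of them 1 tumour lay far from the others, always upward and in the vehicle group. The gaps were taken on CPM and not on a log scale, which favours flags of high values. CXCL8, CXCL3 and CXCL5 were flagged in the same tumour, so their flags are not independent. The 4 flags are therefore a description and cannot be set against that rate. CXCL8 was at 245 CPM in vehicle 004, with the next tumour at 102 CPM. CXCL3 was at 49.4 CPM in vehicle 004, against 22.7 CPM in the next. CXCL5 was at 7.13 CPM in vehicle 004, against 1.36 CPM in the next. CCL2 was at 51.6 CPM in vehicle 001, against 22.82 CPM in the next. Vehicle 004 also had the highest sum of fibroblast markers, most of it COL3A1, and vehicle 001 the high levels of short genes. Their part in these values was not tested.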

How the results depend on the processing

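Over 21 alternatives the log2 fold changes of the 10 chemokines stayed below 0, except for CXCL10, which was 0.0667 with the replicate block on 8 libraries and 0.12 in the same 8 libraries without it. CCL2 came close to 0 in these fits, at -0.0519 and -0.0696, CXCL6 reached -0.37 and CCL5 -0.29 with the block, and CXCL5 reached -0.69 on log2 RPM with a pseudocount of 1. CCL20 ranged from -3.07 to -2.47 and passed the threshold in 16 of 21. It did not pass with the replicate block (-2.96, edgeR adjusted p = 0.0757) or without evexomostat 002, 004, 005 or 007. The labels do not say whether the shared numbers pair the tumours. Deviations of same-numbered tumours correlated at -0.27, 0.07, 0.05 and -0.10. Differently numbered tumours were not compared in the same way, so these values do not settle the question. CXCL1 passed in 5 alternatives, CXCL3 in 4, CXCL8 in 3, CXCL2 in 2 and CXCL5 in 1. Genes past the threshold numbered 101 of all tested genes in edgeR, 649 in DESeq2, 1059 with quality weights, 733 in the 8 libraries without the block, and 1 to 865 when 1 tumour was left out, the lowest without evexomostat 005 and the highest without vehicle 001. The share of higher genes among the calls was 28.7% in edgeR, 40% with upper quartile scaling, and 58.1% and 55.9% on log2 RPM with pseudocounts of 1 and 0.1. Of the 10 chemokines, 6 passed in DESeq2, 5 with quality weights, 2 with no count filter, and 0 to 3 when 1 tumour was left out: 0 without evexomostat 002, 004, 005 or 007, and 3 without vehicle 001 or vehicle 005. Of the genes in the 7 lists, 8 passed in edgeR, 5 with upper quartile scaling, 24 in DESeq2, 29 with quality weights, 5 and 3 on log2 RPM with pseudocounts of 1 and 0.1, 4 with the replicate block, 19 in the same libraries without it, and 0 to 26 when 1 tumour was left out, 0 without evexomostat 002, 005 or 007. The calls of PTGS2, SOD2 and CXCR4 held in 18 of 21 alternatives, ICAM1 in 17, RELB in 15, BIRC3 in 9, IFNGR1 in 7 and NFKBIZ in 6. The cause of these shifts was not tested. Depth limits CXCL5, CXCL6 and the receptors CXCR1, CXCR2, CCR3 and CXCR3, whose counts per library come to 3 or fewer in some tumours.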
